A study of Mus musculus with 11 samples.

Results

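NeuroD1 positive endocrine cells of the mouse duodenum were compared with Glu positive endocrine cells of the same tissue. The comparison used the 3 libraries of each positive population, 6 of the 11 libraries in the series, chosen by their labels. Cells of the NeuroD1 groups came from the strain Neurod1-cre-eYFP and cells of the Glu groups from the strain GluVenus, in which a Venus reporter follows the proglucagon gene Gcg. All mice were on standard chow, and no treatment, age or sex is given in the labels. Digested duodenal epithelium was sorted on the reporter, and about as many negative as positive cells were kept. The 5 negative libraries, 3 from Neurod1-cre-eYFP and 2 from GluVenus, were read beside each gene. A Cre driver can leave its reporter on in cells that no longer express the driver gene, and either reporter can miss cells or mark extra ones. Whether each library number stands for its own animal is not said in the labels. The p-values therefore weigh differences against the spread of these libraries, which may be technical. Strain, reporter and preparation change together between the populations and cannot be told apart.

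Enteroendocrine cells are the hormone-releasing cells of the gut lining. They arise from crypt progenitors that switch on Neurog3 and then Neurod1, both basic helix-loop-helix transcription factors. Their subtypes are known by their main product: L cells make proglucagon peptides and peptide YY, K cells GIP, I cells cholecystokinin, S cells secretin, D cells somatostatin, X cells ghrelin, G cells gastrin and enterochromaffin cells serotonin. Proglucagon peptides and cholecystokinin are often found in the same duodenal cells. A Neurod1 reporter is therefore known to mark many subtypes, and a Gcg reporter a narrower set.

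The somatostatin gene Sst and the substance P precursor gene Tac1 differed between the positive libraries in the analysis that follows. The negatives of Sst differed in the same direction. Gcg is the gene the Glu reporter follows. The 250 bases before the RefSeq start sites of Sst, Tac1 and Gcg are shown (RefSeq, build GRCm38.p6, 5′ to 3′ on the gene's strand). Capitals mark 3 motifs searched on both strands: the cyclic AMP response element TGACGTCA, the E-box CAGATG, a form that NEUROD1 and its relatives can bind, and the homeobox core TAATTA. No 2 of these matches overlap in the windows shown.
Sst, chr16:23890845-23891094, minus strand: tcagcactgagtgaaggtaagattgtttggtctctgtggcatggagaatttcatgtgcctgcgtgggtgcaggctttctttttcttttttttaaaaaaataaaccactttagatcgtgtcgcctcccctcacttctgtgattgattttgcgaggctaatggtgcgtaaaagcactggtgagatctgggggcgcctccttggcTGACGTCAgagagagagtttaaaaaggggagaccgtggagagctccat
Tac1, chr6:7554811-7555060, plus strand: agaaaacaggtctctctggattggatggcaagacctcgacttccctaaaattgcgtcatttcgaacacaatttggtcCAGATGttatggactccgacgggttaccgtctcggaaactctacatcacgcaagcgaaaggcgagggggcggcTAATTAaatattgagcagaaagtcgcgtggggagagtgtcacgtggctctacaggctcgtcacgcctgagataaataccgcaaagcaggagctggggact
Gcg, chr2:62483654-62483903, minus strand: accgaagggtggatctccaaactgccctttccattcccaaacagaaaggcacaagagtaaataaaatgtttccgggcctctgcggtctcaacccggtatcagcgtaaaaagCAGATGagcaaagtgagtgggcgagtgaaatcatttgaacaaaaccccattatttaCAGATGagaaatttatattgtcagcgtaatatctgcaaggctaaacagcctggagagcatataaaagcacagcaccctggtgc
Sst held TGACGTCA from -48 to -41 before the start, a sequence found in 1.55% of 32851 such windows. Tac1 held CAGATG from -173 to -168 and TAATTA from -100 to -95, and Gcg held CAGATG from -139 to -134 and from -83 to -78. CAGATG was found in 14.4% of all windows and TAATTA in 4.84%. The window of Lmx1a held none of the 3 motifs. The GENCODE vM21 models of Sst and Tac1 begin upstream of the RefSeq start, inside these windows. That of Lmx1a begins at 167689237, before its window of 167689308 to 167689557. The Lmx1a window thus lies wholly inside the annotated gene.

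The 11 libraries held 2279595 to 5722381 counts, and 1528145 to 5696425 after mt-Rnr1 and mt-Rnr2, which encode the mitochondrial ribosomal RNAs, were left out. Those 2 genes took 27.5% to 33.9% of the counts in 5 of the 6 NeuroD1 libraries and 0% in NeuroD1_negative_6360 and in each of the 5 Glu libraries, where both are listed at 0. Counts that were not whole numbers stood in 356 to 488 genes of each NeuroD1 library and in 0 to 2 genes of each Glu library, a difference in the deposited counts that follows strain. Glu_positive_5254 stood apart from the other Glu positives. Its TMM scaling factor was the lowest of the 11 at 0.734, and it had the highest summed T cell, MHC, goblet and mitochondrial levels of the 3. Transcripts of the Y chromosome gene Kdm5d stood at 126 CPM there, at 2.47 CPM in Glu_positive_4665, at 8.71 CPM in Glu_positive_5160 and at 0 in all 6 NeuroD1 libraries. Xist, transcribed from the inactive X chromosome, was at 893 to 1582 CPM in the NeuroD1 libraries and at 315 to 6735 CPM in the Glu libraries. Sex may therefore differ between libraries, among the Glu positives as well as between strains. It is in part bound up with strain, and its part in the differences was not tested. Each level is a CPM value scaled by TMM, a count set against the size of its library, in the order NeuroD1_positive_6360, NeuroD1_positive_6361, NeuroD1_positive_6362 and Glu_positive_4665, Glu_positive_5160, Glu_positive_5254. Differences are log2 fold changes of NeuroD1 positive minus Glu positive, ± SE, with Benjamini-Hochberg adjusted p-values of edgeR's quasi-likelihood test.

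Neurod1 itself, on chromosome 2 from 79452521 to 79456751 (GRCm38), did not separate the populations. Its level was 477, 634 and 606 CPM in the NeuroD1 positives, and 455, 291 and 838 CPM in the Glu positives. The log2 difference was 0.12 ± 0.37 with adjusted p = 0.883, and its sign turned when NeuroD1_positive_6361, NeuroD1_positive_6362 or Glu_positive_5160 was left out. In the negative libraries Neurod1 lay between 18.1 and 59.6 CPM, below every positive library.

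Of 14629 genes tested, 505 (3.45%) were higher and 684 (4.68%) lower in NeuroD1 positive than in Glu positive cells, at an adjusted p under 0.05, or 8.13% in either direction. Between the negatives of the strains 52 genes (0.355%) were higher and 17 (0.116%) lower in NeuroD1, and 9.19% of genes had an unadjusted p under 0.05. A gene that passed between the positives was set aside where the negatives differed in the same direction, either past the adjusted p or by a log2 fold change of 1 or more. That set aside 566 genes, 56 by the adjusted p of the negatives and 510 by size alone. The other 623 genes are called population differences here, 4.26% of those tested, with 241 (1.65%) higher and 382 (2.61%) lower. The direct test, whether the positives differ by more than the negatives do, passed for 15 genes higher (0.103%) and 4 lower (0.0273%), all 19 of which (0.13%) also passed between the positives. Without Glu_negative_4665 the call of 14 of these 19 was lost, among them Tac1, Lmx1a, Iapp, Glp1r and Cd28. It passed for 15 of the 623 population differences, and at an unadjusted p under 0.05 it held for 466 of them and for 10.7% of all genes. In bulk RNA, fewer cells of a type and less RNA per cell cannot be told apart, which holds for every difference that follows.

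**Figure D1:**
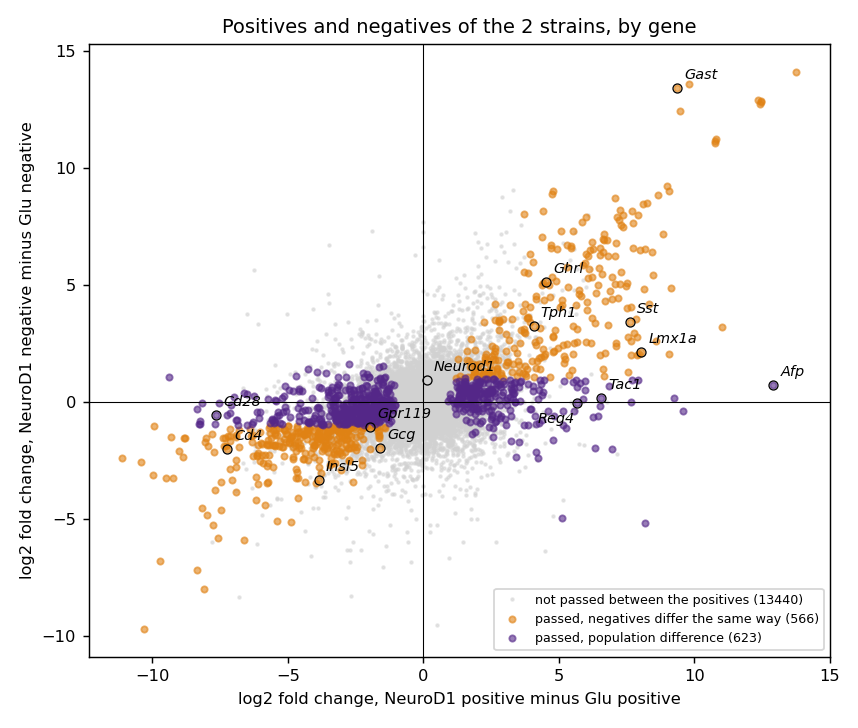
Log2 fold change of NeuroD1 minus Glu between the positive libraries (horizontal axis) and between the negative libraries (vertical axis), 1 point for each of the 14629 tested genes. Gast, Ghrl, Sst and Lmx1a lie in the upper right, where the negatives differ the same way, while Afp, Tac1 and Reg4 lie near 0 on the vertical axis, and Gcg, Insl5 and Gpr119 lie in the lower left.

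Hormone genes were mostly higher in NeuroD1 positive cells. Of 17 hormone genes tested (Tph1 counted with them), 10 were higher and 3 lower, beside 3.45% higher and 4.68% lower over all genes. Their median log2 difference was 2.99 between the positives and 0.47 between the negatives, beside -0.10 and -0.01 over all genes. Only Tac1, Gip and Sct counted as population differences, beside 1.65% higher over all genes. The other 10 of the 13 called genes were set aside, 6 of them past the adjusted p of the negatives. Pyy, Iapp, Ucn3 and Cartpt were set aside by size alone. This list and those that follow were chosen with earlier results of these data known. Their counts beside all genes are therefore descriptive.

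Sst (ENSMUSG00000004366, chromosome 16, 23889573 to 23890958) is the hormone gene of D cells. It stood at 26468, 19942 and 45452 CPM in the NeuroD1 positives, and at 101, 204 and 167 CPM in the Glu positives. Its log2 difference was 7.61 ± 0.51 (adjusted p = 3.02e-08). The negatives stood at 1924, 2418 and 2493 CPM for NeuroD1 and 311 and 119 CPM for Glu, a log2 difference of 3.40 that also passed (adjusted p = 0.00107). Sst was therefore set aside, yet the positives differed by more than the negatives did, by 4.20 ± 0.58 (adjusted p = 0.0025 for the interaction). Glu positive cells held less Sst than Glu_negative_4665.

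Iapp, the amylin gene, had a similar order. NeuroD1 positives were at 123, 164 and 293 CPM and Glu positives at 0.165, 1.19 and 0.345 CPM, a log2 difference of 8.58 ± 0.67 (adjusted p = 1.43e-07). The negatives were at 6.07 to 6.81 CPM for NeuroD1 and 1.01 to 1.07 CPM for Glu, so Iapp was set aside by size, with an interaction of 5.99 ± 0.94 (adjusted p = 0.0088). Cartpt, a neuropeptide gene, was at 4, 16.6 and 4.88 CPM in NeuroD1 positives and had no count in the Glu positives, at least 29.5-fold higher against a floor of 3 counts over the group. Cartpt was set aside by size, on 1 count in the NeuroD1 negatives and none in the Glu negatives.

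Tac1 (ENSMUSG00000061762, chromosome 6, 7554879 to 7565834) is made by enterochromaffin cells and neurons. It was at 496, 238 and 197 CPM in the NeuroD1 positives and at 2.47, 1.58 and 5.86 CPM in the Glu positives, a log2 difference of 6.56 ± 0.76 (adjusted p = 2.81e-05). Its negatives overlapped, at 7.32 to 11.1 CPM for NeuroD1 and 15.9 and 1.07 CPM for Glu, and the interaction passed at 6.42 ± 0.97 (adjusted p = 0.00614). With the library number as a replicate block its value was 5.58 at an edgeR adjusted p = 0.0617, over the threshold of 0.05, and the call was also lost without NeuroD1_positive_6360 or Glu_negative_4665. Every Glu positive library lay below the NeuroD1 negatives in Tac1. Without Glu_negative_4665 the negatives differed in the same direction by 1 or more, and Tac1 no longer counted as a population difference.

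Gip, the incretin gene of K cells, was at 14175, 10336 and 22483 CPM in NeuroD1 positives, a log2 difference of 2.99 ± 0.59 (adjusted p = 0.00442). The Glu positives were spread widely, with 4618 CPM in Glu_positive_4665 against 788 and 506 CPM in the other 2, and the difference was 4.59 without Glu_positive_4665. Sct, the secretin gene, was at 2747, 4067 and 1727 CPM against 1547, 502 and 1175 CPM, a log2 difference of 1.41 ± 0.39 (adjusted p = 0.0312). The Sct call was lost without NeuroD1_positive_6360, NeuroD1_positive_6361, Glu_positive_5160 or NeuroD1_negative_6360. The Gip negatives lay the same way without overlap, at 247 to 314 CPM for NeuroD1 and 155 to 181 CPM for Glu. Their difference of 0.77 was under the size limit, while the Sct negatives overlapped (0.17). The interaction did not pass for Gip (2.22 ± 0.83, adjusted p = 0.324) or Sct (1.24 ± 0.58, adjusted p = 0.456).

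Gast, Ghrl and Tph1 were set aside because their negatives also differed past the adjusted p. For Gast and Ghrl the fitted difference was larger between the negatives, but the interaction did not pass in edgeR. It was -4.05 ± 1.28 for Gast (adjusted p = 0.264), with 1 count in the Glu negatives, and -0.59 ± 0.58 for Ghrl (adjusted p = 0.754). Gast, the gastrin gene, was at 840, 1447 and 1444 CPM in NeuroD1 positives and at 1281, 1579 and 1584 CPM in NeuroD1 negatives, while no Glu library passed 5.17 CPM. Its log2 difference was 9.34 ± 0.68 between the positives (adjusted p = 5.89e-08) and 13.39 between the negatives (adjusted p = 2.41e-07), and NeuroD1 positives held no more of it than NeuroD1 negatives. Ghrl, the ghrelin gene, was at 7800, 10038 and 11278 CPM against 488, 215 and 552 CPM in the Glu positives (4.53 ± 0.44, adjusted p = 2.58e-06), and the negatives differed by 5.12 (adjusted p = 1.74e-05). Tph1, the first enzyme of serotonin synthesis, was at 530, 999 and 458 CPM against 66.3, 35.7 and 15.9 CPM (4.06 ± 0.49, adjusted p = 4.56e-05), with 3.24 between the negatives (adjusted p = 0.0096). Ucn3, a urocortin gene, was at 280, 379 and 175 CPM against 56.3, 1.98 and 3.1 CPM, and its difference of 3.71 became 6.73 without Glu_positive_4665, the high one.

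The L cell hormones were the ones lower in NeuroD1 positive cells. Gcg (ENSMUSG00000000394, chromosome 2, 62474530 to 62483650) was at 14827, 13245 and 11932 CPM in NeuroD1 positives and at 29900, 23227 and 69333 CPM in Glu positives. The log2 difference was -1.61 ± 0.36 (adjusted p = 0.0106), and it was -1.03 and did not pass without Glu_positive_5254. The Gcg negatives differed as well, at 694, 851 and 919 CPM for NeuroD1 and 2722 and 3826 CPM for Glu (adjusted p = 0.0229), so Gcg was set aside. Insl5, an insulin-like peptide gene of L cells, was at 3.56, 8.95 and 9.26 CPM against 47.6, 138 and 138 CPM (-3.87 ± 0.55, adjusted p = 0.000279), and the negatives differed by -3.34 (adjusted p = 0.00653). Pyy, the peptide YY gene, was at 111, 185 and 141 CPM against 277, 410 and 771 CPM (-1.74 ± 0.37, adjusted p = 0.00771), with -1.08 between the negatives. None of these 3 genes counted as a population difference.

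Cck, Nts, Penk and Nmb did not pass between the positives. Cck, the cholecystokinin gene, was high in both populations without overlap, at 47312, 86963 and 39368 CPM in NeuroD1 positives and 37109, 19736 and 36240 CPM in Glu positives (0.90 ± 0.34, adjusted p = 0.116). Nts, the neurotensin gene, differed by 0.81 ± 0.39 (adjusted p = 0.21) and Penk, the enkephalin precursor gene, by -0.84 ± 0.78 (adjusted p = 0.538), and both overlapped between the populations. Nmb, the neuromedin B gene, had 2 counts in the NeuroD1 positives and 71 in the Glu positives, a ratio of 26.5 for Glu over NeuroD1 (exact 95% counting interval 7.07 to 223), and the groups overlapped (adjusted p = 0.123).

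**Figure D2:**
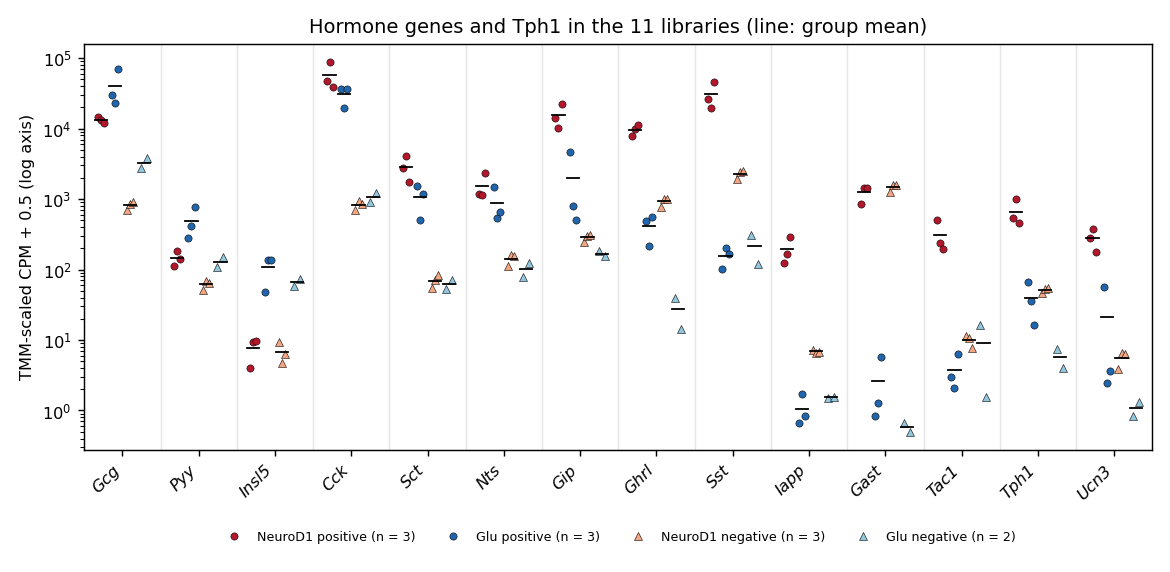
Levels of 13 hormone genes and Tph1 in each of the 11 libraries, as TMM-scaled CPM plus 0.5 on a log axis, with circles for positive and triangles for negative libraries and a line at each group mean. Sst and Tac1 do not overlap between the positive populations, Cck lies close together in both, and the Gast circles and triangles of NeuroD1 sit at similar heights.

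Of 16 enterochromaffin genes tested 11 were higher in NeuroD1 positive cells, beside 3.45% over all genes, and none was lower, with a median log2 difference of 3.89, with 1.09 between the negatives. The 5 population differences were Tac1, Reg4, Mnx1, Trpa1 and Slc18a1. Lists share members, so their counts are not independent of each other. Tac1, Sst, Iapp and Ghrl are also counted as hormone genes, and Lmx1a, Mnx1 and Hhex also as transcription factors. Rbp4 is counted with both the D cell and the plasma protein genes. Reg4, a secreted lectin of endocrine and goblet-type cells, was at 3984, 4603 and 2726 CPM against 31.1, 103 and 87.6 CPM (5.68 ± 0.45, adjusted p = 1.54e-07). All 5 negative libraries lay at 62.2 to 88 CPM for Reg4, within the range of the Glu positives, and the interaction passed (5.72 ± 0.57, adjusted p = 4.78e-05). Trpa1, an irritant-sensing channel, was at 469, 294 and 192 CPM against 8.72, 19.4 and 21.4 CPM (4.28 ± 0.53, adjusted p = 6.54e-05). Slc18a1, a vesicular monoamine transporter named after its values were seen, differed by 1.71 ± 0.48, while its relative Slc18a2, named likewise, differed by 4.48 ± 0.59 and was set aside. Ddc, which makes serotonin from its precursor (0.76 ± 0.40), and the ETS factor gene Fev (-0.25 ± 0.45) did not pass and overlapped between the populations. Trpa1 no longer counted as a population difference without NeuroD1_negative_6361 or Glu_negative_5254, and Slc18a1 lost its call without any 1 of the NeuroD1 positives or without Glu_positive_5160, Glu_positive_5254 or NeuroD1_negative_6360.

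D cell genes were higher as well, 4 of 6 tested (Iapp, Sst, Hhex and Rbp4) beside 3.45% over all genes, with a list median of 3.58 and 1.73 between the negatives. Hhex, a homeobox gene of somatostatin cells, was at 96.1, 31.8 and 96.8 CPM against 0.658, 2.38 and 2.07 CPM (5.53 ± 0.72, adjusted p = 0.000113). Rbp4, the retinol-binding protein gene, was at 356, 438 and 458 CPM against 201, 137 and 83.1 CPM (1.57 ± 0.35, adjusted p = 0.00972), a call lost without NeuroD1_positive_6362. Isl1 (0.15 ± 0.38) and Pdx1 (1.63 ± 0.96) did not pass, Pdx1 being at 46.6 CPM in Glu_positive_4665 and at 1.58 and 0.345 CPM in the other 2. Of 5 ghrelin cell genes tested Ghrl and Irs4 were higher, beside 3.45% over all genes. Irs4, an insulin receptor substrate, was at 31.1, 80.1 and 114 CPM against no count in the Glu positives, at least 319-fold higher against the floor of 3 counts over the group, and was set aside since the negatives differed by 3.21.

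Most enteroendocrine transcription factors did not separate the populations. Of 24 tested, 4 were higher and 1 lower, with a median log2 difference of 0.26, against 3.45% higher and 4.68% lower over all genes. Lmx1a (ENSMUSG00000026686, chromosome 1, 167689237 to 167848741), a LIM homeobox factor of enterochromaffin cells, was at 178, 164 and 100 CPM in NeuroD1 positives and at 0.494, 0.396 and 0.69 CPM in Glu positives, or 1180 counts against 6. Its log2 difference was 8.04 ± 0.64 (adjusted p = 1.61e-07). NeuroD1 negatives held 2.61 to 6.81 CPM and Glu negatives 0.839 and 1.34 CPM, a difference of 2.13 that set Lmx1a aside by size, while the interaction passed at 5.91 ± 0.90 (adjusted p = 0.00614).

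Hhex, Neurog3 and Mnx1 were the factors counted as higher population differences. Neurog3, the factor that starts the endocrine fate, was at 32.5, 32.7 and 3.9 CPM against 0, 1.19 and 0.345 CPM (5.67 ± 1.33, adjusted p = 0.0132), on 4 counts in the Glu positives. Mnx1, a homeobox gene, was at 14.7, 10.3 and 16.6 CPM against 0.329, 0.396 and 0.345 CPM (5.16 ± 1.14, adjusted p = 0.00915). The interaction did not pass for Hhex (4.67 ± 0.94, adjusted p = 0.0687), Neurog3 (5.05 ± 1.70, adjusted p = 0.289) or Mnx1 (6.15 ± 1.69, adjusted p = 0.184). Between the negatives Hhex differed by 0.86, Neurog3 by 0.62 and Mnx1 by -0.99. Neurog3 was at 11.6 and 0.802 CPM in the Glu negatives, the first above every Glu positive library. Without Glu_negative_4665 none of the 3 counted as a population difference any more, and without NeuroD1_negative_6362 neither Hhex nor Neurog3 did. Etv1, an ETS factor named after its values were seen, was the 1 factor lower, at 394, 430 and 413 CPM against 597, 632 and 1437 CPM (-1.11 ± 0.34, adjusted p = 0.049). It was at -0.61 and did not pass without Glu_positive_5254, and its call was also lost without any 1 of the NeuroD1 positives or without NeuroD1_negative_6360 or NeuroD1_negative_6362.

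Among nutrient-sensing receptors 1 of 10 tested passed, and it was lower, beside 4.68% lower over all genes. Gpr119 (ENSMUSG00000051209, chromosome X, 48667979 to 48674478), a receptor for fatty acid derivatives, was at 28.9, 30.4 and 13.9 CPM in NeuroD1 positives and at 76.5, 113 and 96.9 CPM in Glu positives. The groups did not overlap and the log2 difference was -1.97 ± 0.48 (adjusted p = 0.0172), lost without NeuroD1_positive_6362. The negatives, at 2.77 to 6.68 CPM and 7.05 to 10.7 CPM, differed by -1.07, so Gpr119 was set aside just past the size limit. Casr, the calcium-sensing receptor, was at 115, 95.8 and 77.8 CPM against 58.6, 8.32 and 4.48 CPM and did not pass (1.99 ± 0.68, adjusted p = 0.0809), nor did the short-chain fatty acid receptor Ffar2 (1.28 ± 0.60, adjusted p = 0.195).

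Of 16 peptide and transmitter receptors tested 2 were higher, beside 3.45% over all genes. Both were population differences, beside 1.65% higher over all genes. The list had 1 higher without any 1 of the NeuroD1 positives or without Glu_positive_5254. Glp1r, the receptor of the Gcg product GLP-1, was at 56.1, 65.3 and 109 CPM against 0.329, 1.58 and 4.48 CPM in the Glu positives (5.24 ± 0.80, adjusted p = 0.000563). The Glp1r negatives lay the other way, at 3.64 to 8.72 CPM for NeuroD1 and 20 and 6.41 CPM for Glu, and the interaction passed at 6.37 ± 1.06 (adjusted p = 0.0123). The replicate block gave 6.48 at an edgeR adjusted p = 0.0697, which ended the call, and so did leaving out NeuroD1_positive_6360, NeuroD1_positive_6362, NeuroD1_negative_6362 or Glu_negative_4665. Sstr1, a somatostatin receptor, was at 20.5, 18.3 and 25.8 CPM against 2.3, 4.36 and 1.03 CPM (3.07 ± 0.77, adjusted p = 0.0197), a call lost without any 1 of the NeuroD1 positives or without Glu_positive_5254, and it no longer counted as a population difference without Glu_negative_4665. Neither the cannabinoid receptor Cnr1 (1.65 ± 0.58, adjusted p = 0.0855) nor the galanin receptor Galr1 (-0.62 ± 0.61, adjusted p = 0.569) passed.

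**Figure D3:**
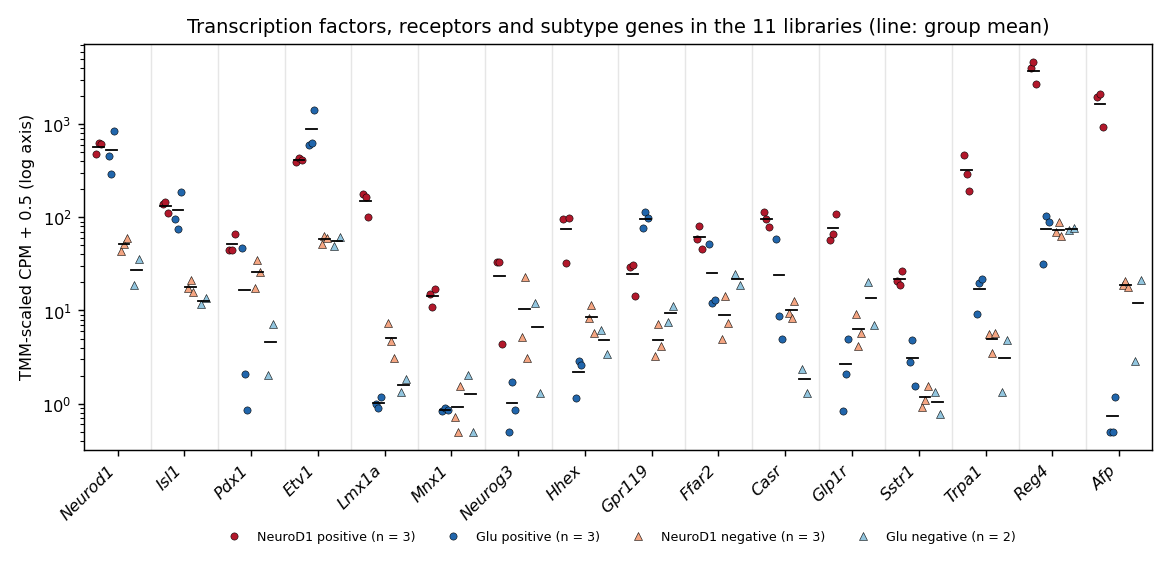
Levels of 8 transcription factors, 5 receptors, the channel Trpa1, Reg4 and Afp in each of the 11 libraries, as TMM-scaled CPM plus 0.5 on a log axis, with a line at each group mean. Neurod1 and Isl1 overlap between the positive populations, Lmx1a, Glp1r, Reg4 and Afp are far higher in NeuroD1 positives, and Gpr119 is higher in Glu positives.

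Granule and exocytosis genes were in part higher in NeuroD1 positive cells, and nearly always beside a difference of the negatives. Of 14 granin and prohormone-processing genes 6 were higher, beside 3.45% over all genes, and all 6 were set aside, with list medians of 0.91 between the positives and 0.99 between the negatives. Chga, the chromogranin A gene, was at 3232, 2537 and 2121 CPM against 189, 135 and 132 CPM (4.11 ± 0.33, adjusted p = 1.61e-07), and its negatives differed by 2.55 (adjusted p = 0.000863). Pcsk2, a prohormone convertase that cuts proglucagon into glucagon in the pancreas, was at 25.8, 67.1 and 40.7 CPM against 1.32, 3.17 and 2.07 CPM (4.38 ± 0.76, adjusted p = 0.00165), with 4.97 between the negatives (adjusted p = 0.0148). The other 4 were the granin and granule protein genes Vgf (2.63 ± 0.68), Pcsk1n (2.05 ± 0.56), Chgb (1.86 ± 0.40) and Scg5 (1.62 ± 0.42), the last 2 named after their values were seen. The calls of Vgf, Pcsk1n and Scg5 were lost without Glu_positive_5160, those of Vgf and Pcsk1n also without NeuroD1_positive_6361, and those of Pcsk1n and Scg5 also without NeuroD1_positive_6362 or Glu_positive_5254, that of Scg5 also without NeuroD1_positive_6360. Scg2 (-0.06 ± 0.28), a secretogranin gene, and Cpe (-0.44 ± 0.29), the carboxypeptidase that trims prohormones, overlapped between the populations. The list's count of 6 was 3 without Glu_positive_5160.

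Of 17 genes of regulated exocytosis 5 were higher, beside 3.45% over all genes. Rph3al, named after its values were seen, was the 1 population difference (1.55 ± 0.42), a call lost without NeuroD1_positive_6361, NeuroD1_positive_6362, Glu_positive_5160 or Glu_positive_5254. The vesicle GTPase gene Rab3b was at 47.2, 39.8 and 41.7 CPM against 8.89, 1.19 and 2.76 CPM (3.25 ± 0.71, adjusted p = 0.00833), and its relative Rab3c differed by 2.65 ± 0.55 (adjusted p = 0.006). Syt7, a calcium sensor of exocytosis, differed by 1.72 ± 0.37 (adjusted p = 0.00714), while Snap25 of the fusion machinery did not pass (0.52 ± 0.37, adjusted p = 0.408). Syt4, a synaptotagmin gene, had 32 counts against none in the Glu positives, at least 14.3-fold higher against the floor. Of 19 excitability channels Trpc5 alone passed (3.29 ± 0.88, adjusted p = 0.0265), beside 3.45% higher over all genes, and it was set aside. Its call was lost without any 1 of the NeuroD1 positives or without Glu_positive_5160 or Glu_positive_5254, and its difference was 6.40 without Glu_positive_4665. The calcium channel gene Cacna1a was alike in level, at 278, 370 and 321 CPM against 363, 408 and 295 CPM (-0.14 ± 0.32, adjusted p = 0.825).

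Genes of liver-type plasma proteins were higher, 6 of 10 tested with none lower, beside 3.45% higher over all genes. Of these, 4 were population differences, beside 1.65% over all genes: Afp, Alb, Serpina1c and Rbp4. Afp, the alpha-fetoprotein gene, was at 1949, 2126 and 923 CPM in NeuroD1 positives and had 2 counts in the 3 Glu positives, a ratio of 8652 with an exact 95% counting interval of 2395 to 71447. The Afp negatives overlapped, at 17.2 to 20 CPM for NeuroD1 and 2.35 and 20.6 CPM for Glu, and the interaction was 12.19 ± 1.11 (adjusted p = 2.01e-05). Glu positive cells thus held less Afp than either negative population. Alb, the albumin gene, was at 44, 20.1 and 30.2 CPM against 0.165, 1.58 and 1.03 CPM (5.18 ± 0.86, adjusted p = 0.00115). Ambp, the alpha-1-microglobulin precursor gene, was at 580, 743 and 382 CPM against 73.1, 42 and 16.9 CPM (3.68 ± 0.45, adjusted p = 6.03e-05) and was set aside, since the negatives differed by 3.86. Afp no longer counted as a population difference without Glu_negative_5254, Alb without NeuroD1_negative_6360 or NeuroD1_negative_6361, and Serpina1c without NeuroD1_negative_6360 or Glu_negative_4665, while the Serpina1c call was lost without NeuroD1_positive_6361.

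By size, the largest higher population differences with an average log2 CPM of at least 4 also included Tpbg, Asic5 and Gstk1. Tpbg, a Wnt-regulating membrane glycoprotein gene, was at 215, 164 and 138 CPM against 0.165, 1.19 and 1.03 CPM (7.92 ± 0.64, adjusted p = 1.83e-07), with a passing interaction of 6.99 ± 0.85 (adjusted p = 0.000638). Asic5, an acid-sensing ion channel family gene, was at 110, 87.7 and 230 CPM against 0.494, 5.15 and 1.72 CPM (5.98 ± 0.78, adjusted p = 0.000113). Gstk1, a mitochondrial and peroxisomal glutathione transferase gene, was at 64.5, 62.6 and 28.5 CPM against 1.65, 5.15 and 1.72 CPM (4.23 ± 0.66, adjusted p = 0.000679). Neither Tpbg nor Asic5 counted as a population difference without Glu_negative_4665, nor Tpbg without NeuroD1_negative_6361.

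The genes lower in NeuroD1 positive cells included many of immune cells. Of 16 T cell and innate lymphocyte markers tested 15 were lower, beside 4.68% over all genes, with a median log2 difference of -3.73 between the positives and -1.41 between the negatives. Their summed level was 26.2, 31.8 and 102 CPM in the NeuroD1 positives, and 577, 547 and 2923 CPM in the Glu positives. It was 677 to 949 CPM in the NeuroD1 negatives and 2146 to 2243 CPM in the Glu negatives, and no marker of the list was at 0 in any group. Glu_positive_5254 thus stood above both Glu negatives, and the other 2 Glu positives below them. The list had 12 lower without Glu_positive_5254, 10 without NeuroD1_positive_6360 and 8 without NeuroD1_positive_6361.

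Cd28, a T cell costimulatory receptor gene, had 3 counts in the NeuroD1 positives against 51.8, 25.7 and 143 CPM in the Glu positives, a ratio of 198 for Glu over NeuroD1 (exact 95% counting interval 67.4 to 960). Its negatives overlapped, and the interaction was -7.10 ± 1.18 (adjusted p = 0.0123). Cd4, the helper T cell coreceptor gene, was at 3.56, 1.79 and 2.93 CPM against 131, 83.2 and 1049 CPM (-7.23 ± 0.90, adjusted p = 6.54e-05), and was set aside since its negatives differed by -2.02. Ptprc, the pan-leukocyte CD45 gene, was at 1.33, 5.37 and 11.2 CPM against 78.8, 110 and 511 CPM (-5.20 ± 0.72, adjusted p = 0.000209), and its negatives differed by -0.96, just inside the size limit. With Cd28 and Ptprc, Cd3g (-3.76 ± 0.97), named after its values were seen, made up the 3 population differences of the list. All 3 depended on single negative libraries. Cd28 no longer counted without NeuroD1_negative_6361, Cd3g without NeuroD1_negative_6360 and Ptprc without either of those or Glu_negative_5254, and the Cd3g call was lost without NeuroD1_positive_6360 or NeuroD1_positive_6361. Ccl5, a chemokine gene, was the 1 member that did not pass (-1.89 ± 0.59, adjusted p = 0.0545).

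Leukocyte and other genes also led the largest lower population differences. Fli1, an ETS factor of blood and endothelial cells, was at 0.445, 0.447 and 0.488 CPM against 11.5, 14.7 and 45.9 CPM (-5.58 ± 0.80, adjusted p = 0.000315), and Lcp2, a T cell receptor adaptor gene, at 2.67, 2.68 and 4.14 CPM against 52.8, 53.1 and 282 CPM (-5.30 ± 0.70, adjusted p = 0.00014). Kyat3, a kynurenine aminotransferase gene, was at 0.445, 0 and 1.46 CPM against 18.6, 40 and 107 CPM (-6.15 ± 1.03, adjusted p = 0.00129). Kyat3 lay at 0 to 4.47 CPM in the 5 negative libraries, below each Glu positive library. Slc34a2, a phosphate transporter gene, was at 7.08, 38.4 and 359 CPM in the Glu positives, and its difference of -6.92 was -4.42 without Glu_positive_5254. The same library also moved Hlf (-5.18, and -2.32 without it), Ikzf3 (-4.92 and -3.16) and Sh3bp1 (-5.52 and -1.97, which did not pass), and DESeq2 called none of these 3. Kyat3 and Fli1 no longer counted as population differences without NeuroD1_negative_6360, Lcp2 without NeuroD1_negative_6361 or Glu_negative_5254, and Slc34a2 without NeuroD1_negative_6362 or Glu_negative_4665.

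Among the 684 lower genes Glu_positive_5254 was the highest Glu positive library in 466 (68.1%), against 34.9% of all tested genes. Among the 505 higher genes Glu_positive_4665 was the highest Glu positive library in 292 (57.8%), against 35.2% of all tested genes. Leaving out Glu_positive_5254 left 335 genes higher and 464 lower, and 159 higher and 244 lower population differences. Leaving out Glu_positive_4665 gave 890 higher and 1260 lower. The part of the immune, goblet, mitochondrial and Kdm5d levels of Glu_positive_5254 in these counts was not tested.

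Fewer genes of B and plasma cells and of antigen presentation passed. Of 9 B and plasma cell markers 4 were lower, beside 4.68% over all genes, among them Cd79a, Pou2af1 and Jchain. That count was 2 without Glu_positive_5160, Glu_positive_5254 or NeuroD1_positive_6361, 1 without NeuroD1_positive_6362, 0 without NeuroD1_positive_6360 and 7 without Glu_positive_4665. Cd79a, a B cell receptor gene, was at 0.445, 1.34 and 1.95 CPM against 4.61, 19.4 and 12.1 CPM (-3.12 ± 0.70, adjusted p = 0.0103). The immunoglobulin heavy chain gene Igha did not pass (-1.71 ± 0.57, adjusted p = 0.0716). Summed levels of that list were 1601 to 3120 CPM in NeuroD1 positives, 2205 to 8822 CPM in Glu positives and 27119 to 154135 CPM in the negatives. Of 11 MHC and antigen presentation genes 5 were lower, beside 4.68% over all genes, and the count was 3 without NeuroD1_positive_6361. Of the 5, 4 were set aside, and B2m, named after its values were seen, the 1 population difference (-1.66 ± 0.41, lost without Glu_positive_5254, NeuroD1_positive_6361 or NeuroD1_positive_6362). Cd74, the class II invariant chain gene, was at 81, 96.7 and 55.3 CPM against 413, 346 and 277 CPM (-2.16 ± 0.32, adjusted p = 0.000464), with -1.09 between the negatives. H2-Aa, a class II chain gene, differed by -2.72 ± 0.43 (adjusted p = 0.000715).

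Goblet cell markers were lower in 5 of 12 genes tested and higher in 1, beside 4.68% lower and 3.45% higher over all genes, with a median log2 difference of -1.01. Muc2, the main intestinal mucin gene, was at 41.8, 64.4 and 96.8 CPM against 166, 392 and 782 CPM (-2.72 ± 0.46, adjusted p = 0.00142). Clca1, a secreted mucus protein gene, was at 20.5, 43.9 and 62.7 CPM against 89.5, 303 and 320 CPM (-2.48 ± 0.45, adjusted p = 0.00227). Spink4, a goblet cell protease inhibitor gene, fell in the same direction (-2.96 ± 0.58, and -1.91 without Glu_positive_5254), while Tff3 did not pass (0.75 ± 0.36). Zg16 (-2.18 ± 0.60) and Fcgbp (-1.13 ± 0.32) were the other 2 lower, and Fxyd3 (1.54 ± 0.39) was the 1 higher. Fcgbp and Fxyd3 were picked with their values known, and the calls of Zg16 and Fcgbp were lost without NeuroD1_positive_6360 or Glu_positive_5254. Summed goblet levels were 2198 to 2880 CPM in NeuroD1 positives, 2321 to 4539 CPM in Glu positives and 3166 to 6012 CPM in the negatives. The list had 3 lower without Glu_positive_5254 or without NeuroD1_positive_6360, and Spink4 no longer counted as a population difference without NeuroD1_negative_6360, NeuroD1_negative_6361 or Glu_negative_4665.

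Of 12 brush border genes 3 were lower, Enpep, Mep1b and Mgam, beside 4.68% over all genes. All were population differences, none passed in limma voom, and none of the 3 calls held without NeuroD1_positive_6362. Enpep, an aminopeptidase gene, was at 41.4, 34.9 and 26.3 CPM against 106, 132 and 87.6 CPM (-1.67 ± 0.40, adjusted p = 0.015). Of 15 fat absorption genes Mttp alone passed, beside 4.68% lower over all genes. This lipoprotein assembly gene was at 90.8, 88.2 and 67 CPM against 174, 220 and 295 CPM (-1.49 ± 0.35, adjusted p = 0.0135), a call lost without NeuroD1_positive_6362. Of 10 Paneth cell markers 0 passed in edgeR (2 at an unadjusted p under 0.05, both lower), 1 in DESeq2 and 0 in limma voom. Of 12 tuft cell markers Plcb2 was lower (-2.89 ± 0.74), of 10 myeloid markers Cd68 (1 count against 46, a ratio of 34.3 for Glu over NeuroD1, exact 95% counting interval 5.86 to 1385) and of 14 stromal and endothelial markers Acta2 (-3.22 ± 0.84). Each was 1 gene of its list, beside 4.68% lower over all genes. Plcb2 and Acta2 were population differences, and Cd68 was set aside. Each of those 3 calls was lost without NeuroD1_positive_6360, and Acta2 was at -1.40 without Glu_positive_5254.

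Of 4 enteric neuron and glia markers tested 1 was higher, beside 3.45% over all genes. This was Tubb3, with 30 counts against 0, at least 13.4-fold against the floor, and it was set aside. That list had no call without any 1 of the NeuroD1 positives or without Glu_positive_5254. Of 12 crypt stem and Wnt genes 1 was lower and 1 higher, beside 4.68% lower and 3.45% higher over all genes. Lgr5 was lower (-3.20 ± 0.80, and -1.84 without Glu_positive_5254, which did not pass) and Msi1 higher (2.00 ± 0.58), a call lost without any 1 of the 3 NeuroD1 positives. Of 16 proliferation genes Ccnb2 (-2.44 ± 0.59) and Mcm5 (-2.18 ± 0.54) were lower, beside 4.68% over all genes. Both calls were lost without NeuroD1_positive_6361, and 1 of the 2 genes was set aside. Mki67 did not pass (-0.70 ± 0.36, adjusted p = 0.234). Of 14 immediate early genes, which rise during cell handling, 0 passed in edgeR (1 at an unadjusted p under 0.05), DESeq2 or limma voom, and Egr1 was at 1717 to 2092 CPM against 2026 to 2775 CPM.

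Mitochondrially encoded messengers were lower in NeuroD1 positive cells, 8 of 12 tested beside 4.68% over all genes, with 7 population differences and a median log2 difference of -1.59 against 0.10 between the negatives. The count of 8 was 5 without NeuroD1_positive_6360 or NeuroD1_positive_6361 and 4 without NeuroD1_positive_6362. mt-Co3, a cytochrome oxidase subunit gene, was at 1327, 1451 and 1127 CPM against 3723, 9582 and 11988 CPM (-2.70 ± 0.41, adjusted p = 0.000596). mt-Atp6, an ATP synthase subunit gene, was at 3444, 4572 and 4011 CPM against 6298, 25993 and 26423 CPM (-2.29 ± 0.48, adjusted p = 0.00677). mt-Nd3 differed as much between the negatives (-5.11) as between the positives (-5.42 ± 0.68) and was set aside. Summed levels were 35605 to 44775 CPM in NeuroD1 positives and 55892, 137123 and 180837 CPM in the Glu positives, lowest in Glu_positive_4665. Without Glu_negative_4665 mt-Co3 no longer counted as a population difference. The mitochondrial ribosomal counts that were left out sat in all 3 NeuroD1 positives and in no Glu library. With mt-Rnr1 and mt-Rnr2 kept in, 456 genes were higher and 709 lower between the positives. Of the 85 called genes named, 0 lost the call in that fit. The part of those counts in this result was not tested further.

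**Figure D4:**
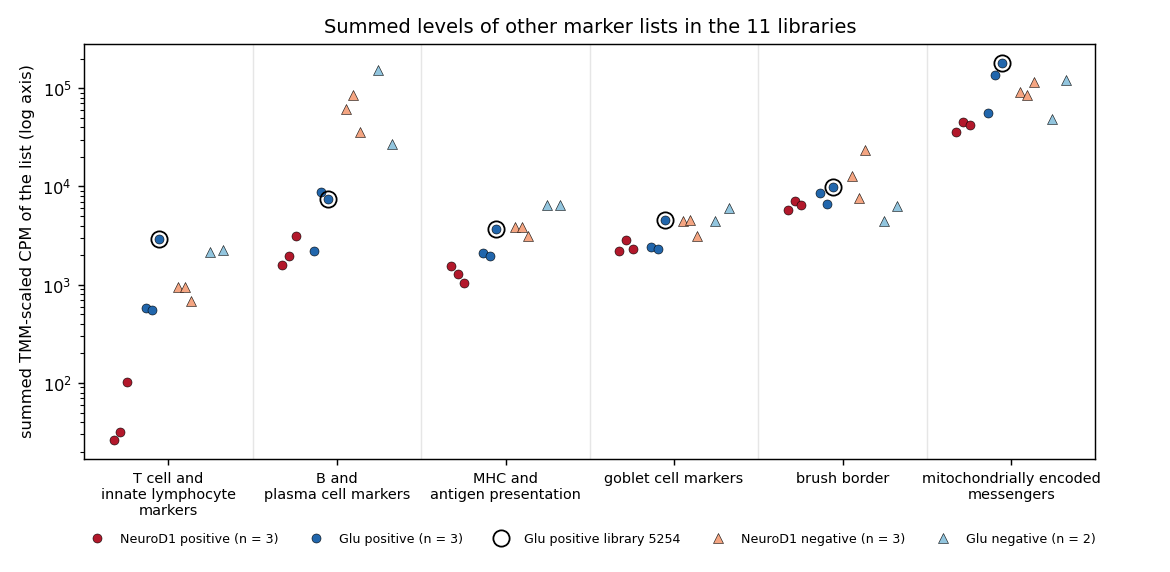
Summed TMM-scaled CPM of 6 marker lists in each of the 11 libraries on a log axis, with circles for positive and triangles for negative libraries and a ring around Glu_positive_5254. The NeuroD1 positives are the lowest 3 libraries for T cell, MHC and mitochondrial sums, and Glu_positive_5254 is the highest Glu positive for 5 of the 6 lists.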

How the data were processed

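RNA from sorted duodenal cells was amplified from 2 ng with an Ovation kit and sequenced, per the labels' protocols. Per the submitters' processing notes, the tools were CASAVA, TopHat2 (2.1.0) and Cufflinks (2.2.1), with GRCm38 as the build. Neither annotation nor strandedness is given in the sources used here, so reads may be shared between overlapping or antisense genes and between close copies. The authors deposited 1 table of estimated counts for 38283 Ensembl genes and 11 libraries, not whole in 848 genes, and these expected counts were rounded to whole numbers. Symbols and positions came from GENCODE vM21 (GRCm38), which matched 36425 genes.

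mt-Rnr1 and mt-Rnr2 were left out before library sizes were summed. edgeR 4.0.16 (R 4.3.3) was run with filterByExpr and TMM factors, and 4 group means over the 11 libraries were fitted for the quasi-likelihood test. The SE is the size of the log2 fold change divided by the square root of F. Genes were called at an adjusted p under 0.05. The size limit of 1 (log2) for the negatives was added to the rule because 3 against 2 negative libraries have little power. Alternatives were DESeq2 1.42.0, limma 3.58.1 (voom), other scaling factors, other filters and each library left out. The fit was also run with mt-Rnr1 and mt-Rnr2 kept in, and with the positives or negatives alone. Leaving out genes with counts that were not whole was added after seeing the data. A floor of 3 counts per group was set for groups at 0, and exact (Clopper-Pearson) 95% intervals for ratios resting on 1 to 3 counts; neither covers more than counting error, because amplified reads are not independent molecules.

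The genes and the 28 lists (365 genes) were chosen with earlier results of these data known. Named genes were Gcg, Neurod1, Sst, Tac1, Lmx1a and Gpr119, the hormone genes tested, up to 4 called members (the largest) and up to 2 uncalled ones (the highest average level) of every other list, and 10 population differences each way by size with an average log2 CPM of at least 4, no clone name and no overlap. Of these 139 genes not all are printed, and most that are left out did not pass; some genes the rule took are not reported here.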

Additional observations from a re-analysis of the deposited data

Results flagged for a closer look

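In 19 genes the difference between the positive populations was unlike that between the negatives (the interaction in edgeR, adjusted p under 0.05). Of these, 15 were more raised in NeuroD1 positive cells. The largest log2 interactions were 12.19 for Afp, 9.98 for Trpc7 (226 counts in the NeuroD1 positives and 0 in the Glu positives, so this fitted value is no bound), 6.99 for Tpbg, 6.42 for Tac1, 6.41 for the arginase gene Arg1 and 6.37 for Glp1r. Next came Iapp at 5.99, the clone-named gene 2810025M15Rik at 5.94, Lmx1a at 5.91, Reg4 at 5.72, Asic5 at 5.49, the monooxygenase gene Fmo2 at 4.30, Sst at 4.20, the proteoglycan gene Vcan at 3.82 and the glutathione peroxidase gene Gpx3 at 2.71. The 4 in the other direction were the immune genes Cd28 at -7.10 and Sash3 at -5.75, and Ms4a18 at -3.93 and Clec2h at -3.45. Only Sst, Reg4, Arg1, Tpbg and Afp kept an adjusted p under 0.05 when each of the 11 libraries was left out in turn. The other 14 lost it without Glu_negative_4665, 12 of them also without NeuroD1_positive_6360, 10 without Glu_negative_5254, 9 without NeuroD1_negative_6360, 8 without NeuroD1_positive_6362 and 8 without NeuroD1_negative_6362.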

How the results depend on the processing

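Counts of genes depended on tool, filter and libraries, while no called gene among the 139 of the naming rule changed direction in 2902 refitted values; 34 values of genes that did not pass did, and 133 calls were lost. Fev turned to 0.13 in limma voom. Between the positives 258 genes were higher and 312 lower with the positive libraries alone, and lower genes numbered 1190 with no filter, 1116 in DESeq2 and 238 in voom. Between the negatives the counts higher and lower were 159 and 93 with no filter and 130 and 46 in DESeq2, with 27 lower in voom and 46 with the negatives alone. Interaction counts were 82 and 247 with no filter, 57 and 116 in DESeq2 and 7 and 0 in voom, with 2 lower under RLE factors. Population differences were 389 and 717 in DESeq2, with 732 lower with no filter and 105 in voom. They were 460 and 673 where only the adjusted p of the negatives set a gene aside, and 91 and 121 where any difference in the same direction did. Calls between the positives were 42.5% higher with TMM, 65.3% in voom.

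Leaving out 1 library gave 246 to 890 higher and 325 to 1260 lower between the positives, 22 to 86 and 4 to 48 between the negatives, 5 to 21 and 0 to 28 for the interaction, and 81 to 563 and 140 to 852 population differences. For genes that did not pass, it gave either sign: -0.24 to 0.59 for Neurod1, -0.73 to 0.81 for Fev, -0.16 to 0.60 for Isl1 and -0.25 to 0.10 for Scg2. With library totals the median interaction moved from -0.16 to -0.04. The positives share no library numbers across strains, so a replicate block could be fitted for the interaction only, and it gave 13 higher and 12 lower. Same-numbered libraries correlated at 0.0088 to 0.0456 in their deviations, under 0.1, so no pairing was assumed. These correlations cannot exclude a shared source, because they compare unlike cell populations over 2 or 3 libraries each. Sex chromosome genes summed to 2186 CPM in Glu_positive_4665 and 1970 CPM in Glu_negative_4665, and to 711 CPM in Glu_positive_5254 and 439 CPM in Glu_negative_5254. Those sums add Xist and Y chromosome genes together, so they cannot show the sex or source of a library. Whether a number is 1 source was not tested. The block ended the interaction call of Clec2h (-3.10), Gpx3 (2.50), 2810025M15Rik (5.56), Glp1r (6.48), Tac1 (5.58) and Trpc7 (10.15), at adjusted p of 0.0617 to 0.0713 in edgeR. Of the 85 called genes named, 18 lost the call between the positives in voom, 3 in DESeq2 and 13 with the positive libraries alone. With 2 Glu negative libraries, and deposited counts that differ in kind between strains, genes of few counts are the least certain.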
